A study of Caenorhabditis elegans with 15 samples.

Results

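The 10 small heat shock genes described here are hsp-16.2, hsp-16.41, hsp-12.1, hsp-12.2, hsp-12.3, hsp-12.6, hsp-17, hsp-25, hsp-43 and sip-1 of Caenorhabditis elegans. They were taken by symbol, through their WormBase identifiers, from a table of 20392 genes counted by RNA-seq in early embryos, collected before the bean stage. The 5 groups, each of 3 independent biological replicates, were wild-type N2 Bristol (WT) at 20 °C, WT after 1 h at 37 °C (heat stress, HS), the deletion met-2(n4256) III (met-2Δ) at 20 °C and after HS, and the point mutant met-2(gw1660) III (met-2-CD) at 20 °C. MET-2 is a histone H3 lysine 9 methyltransferase, and met-2-CD carries a change in its catalytic SET domain that the study describes as making the enzyme catalytically deficient. No met-2-CD library after HS was analysed here, so the heat response of that mutant is not described. Worm cultures were heated as a whole before RNA extraction, and each genotype is a single strain.

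Small heat shock proteins are chaperones that share an alpha-crystallin domain and hold unfolding proteins without using ATP. Some members, such as the hsp-16 genes, are nearly silent until the heat shock factor HSF-1 switches them on, whereas others are made in particular tissues or stages without stress. SIP-1 is a small heat shock protein of oocytes and embryos, HSP-25 has been described in muscle and pharynx, and the HSP-12 proteins are unusually short members. By these descriptions hsp-16.2 and hsp-16.41 are called heat-inducible below, and hsp-12.1, hsp-12.2, hsp-12.3, hsp-25, hsp-43 and sip-1 developmental. The genes hsp-12.6, which responds to insulin signalling, and hsp-17 were put in neither class. In the WBcel235 annotation hsp-16.2 and hsp-16.41 lie head to head on chromosome V, 220 bases apart, and hsp-12.3 and hsp-12.6 lie on the same strand of chromosome IV, 721 bases apart.

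The libraries held 16145040 to 58837967 counts each, and 3 counts corresponded to 0.0564 to 0.18 CPM (counts scaled to a common library size, with TMM factors). The met-2 transcript averaged 313 CPM in WT and 33.5 in met-2Δ at 20 °C, a log2 fold change of -3.22 ± 0.06 (SE), whereas met-2-CD, a point mutant, had 295 CPM. All 16 early embryo markers were detected in every group, and their changes are given below with those of the other markers. The WT libraries at 20 °C stood apart: 28 genes were split between these 3 libraries and the remaining 12, with at most 3 counts in each library on one side and 20 or more in each on the other, and no gene split off any other group in this way. These 3 WT libraries were also the only ones with neither a met-2 mutation nor heat, so effects of both and a trait of the libraries cannot be told apart. Their depth, 45832193 to 58837967 counts, overlapped that of the met-2-CD libraries and exceeded that of the other 3 groups. The WT heat response and the interaction of the members, which rest on them, are also given with the met-2-CD libraries as the baseline. Both comparisons of a mutant with WT at 20 °C rest on the same WT libraries and have no other baseline here. A gene was called changed at a false discovery rate (FDR) below 0.01 in edgeR's quasi-likelihood test and a fold change above 4 for temperature or above 2 for genotype.

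The RNA of the 10 genes changed hands on heating. Other alpha-crystallin genes were left out, among them hsp-16.1 and hsp-16.48, whose transcripts could not be measured, so these are not values of the whole family. At 20 °C sip-1 supplied most of the RNA of the 10 genes: its share of their summed level per kilobase (RPKM) was 95.5% ± 1.56 (SD, n = 3) in WT, 93.4% ± 0.488 in met-2Δ, with met-2-CD lower at 84.9% ± 5.01. After HS the hsp-16.2 and hsp-16.41 transcripts together supplied 89.4% ± 1.91 in WT and 86.1% ± 3.51 in met-2Δ, and sip-1 supplied 8.2% ± 1.71 and 12.06% ± 3.28. The summed RPKM of the 10 genes was 2881 ± 548 in WT, 1858 ± 20.4 for met-2Δ and 1216 ± 126 for met-2-CD at 20 °C, against 11477 ± 1570 in WT and 8235 ± 1377 in met-2Δ after HS. By RPKM, hsp-16.41 moved from rank 2996 of 15156 genes in WT at 20 °C to rank 6 after HS, and hsp-16.2 from rank 4060 to rank 7. The sip-1 transcript stood at rank 19 in WT and rank 46 after HS.

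**Figure D1:**
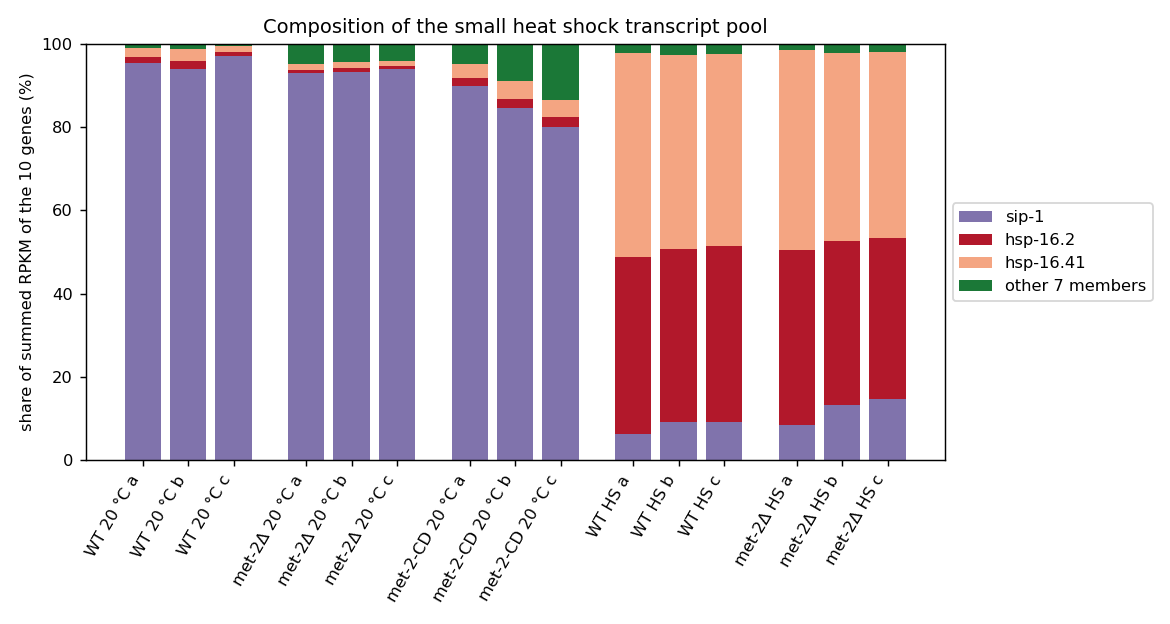
Share (%) of each member in the summed RPKM of the 10 small heat shock genes, one bar per library, with libraries a, b and c of each group side by side. The sip-1 share runs from 80.0% to 97.2% over the 20 °C libraries and from 6.22% to 14.6% over the HS libraries, and the met-2-CD libraries differ most among themselves.

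The heat-inducible pair gave the largest heat responses among the members in both genotypes. In WT at 20 °C, hsp-16.2 read 26.1, 24.2 and 19.3 CPM, and after HS 3276, 2489 and 2637 CPM. In met-2Δ the same transcript read 7.92, 9.06 and 6.74 CPM at 20 °C and 2391, 1670 and 1694 CPM after HS. Neither genotype's ranges overlapped between temperatures, and after HS every met-2Δ library lay below every WT library. The fold change was 120 (95% interval 90.7 to 160) in WT and 241 (178 to 327) in met-2Δ, with FDR = 2.6e-13 and 4.8e-13.

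The partner gene hsp-16.41 read 37.2, 42.6 and 31.9 CPM in WT at 20 °C and 4155, 3099 and 3185 CPM after HS. In met-2Δ it read 16.8, 17.3 and 16.8 CPM at 20 °C and 3015, 2125 and 2161 CPM after HS. The library lettered a was the highest of its group after HS in both genotypes and for both genes. The fold change was 93.3 (72.3 to 120) in WT and 143 (110 to 187) in met-2Δ.

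The balance within the pair also differed between temperatures. Per kilobase, hsp-16.41 exceeded hsp-16.2 by a ratio of 1.46 ± 0.154 (SD, n = 3) in WT, 1.96 ± 0.265 for met-2Δ and 1.81 ± 0.159 for met-2-CD at 20 °C, but by only 1.12 ± 0.0275 in WT and 1.15 ± 0.00689 in met-2Δ after HS. The lowest ratio at 20 °C was 1.29 and the highest after HS was 1.15, so the temperatures did not overlap. The difference was not tested.

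**Figure D2:**
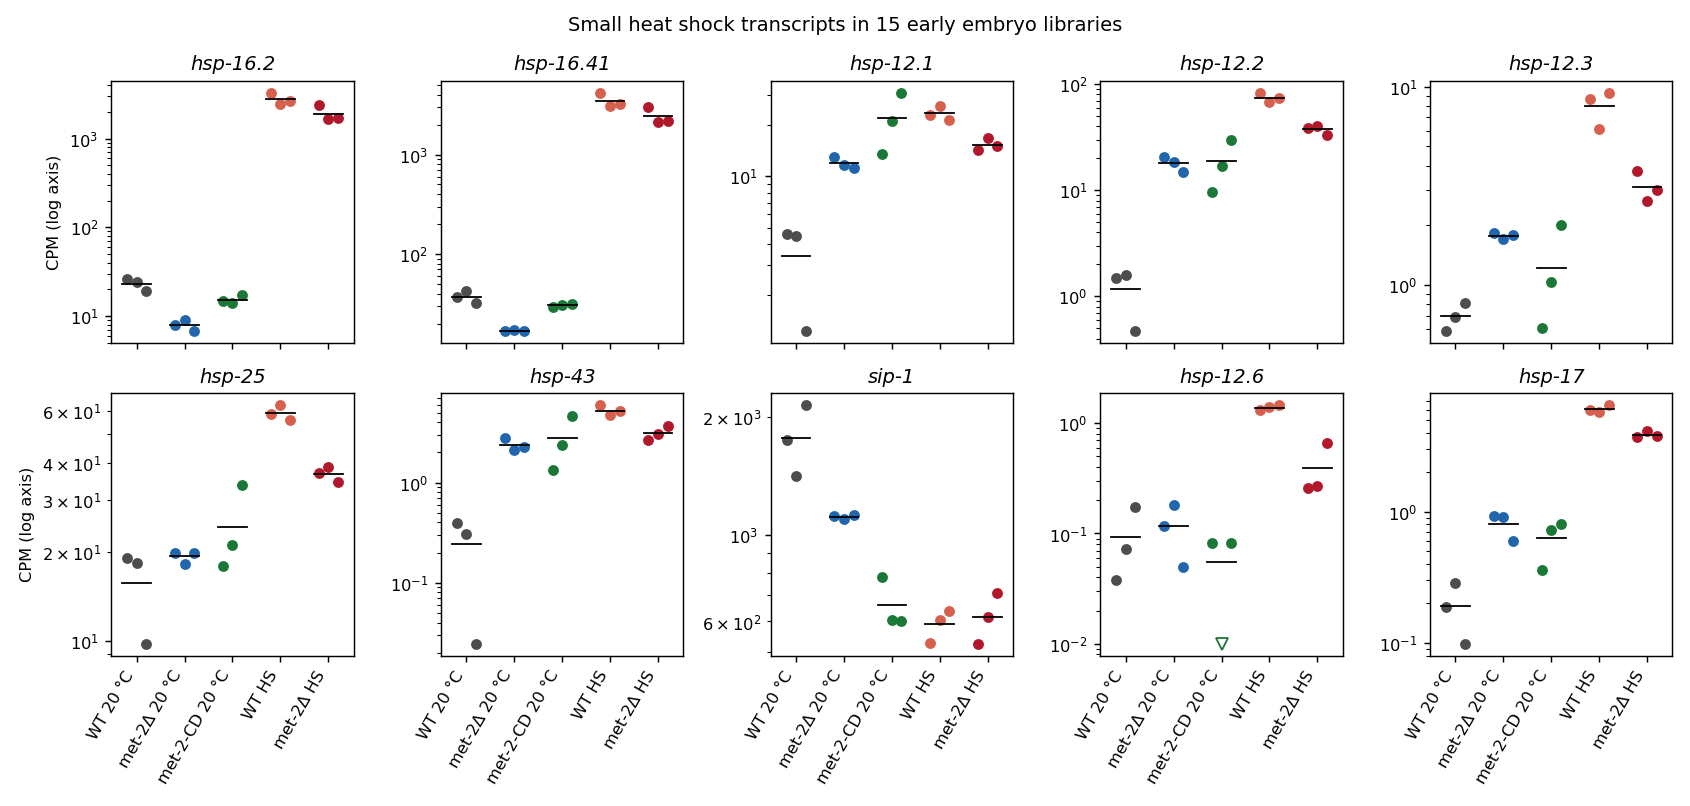
CPM of each small heat shock transcript on log axes (each panel has its own scale) in the 5 groups. Points are libraries a, b and c from left to right, bars are group means, and the open triangle marks the single library with 0 counts (hsp-12.6 in met-2-CD). The 2 hsp-16 genes separate by temperature, whereas hsp-12.1, hsp-12.2 and hsp-43 separate WT at 20 °C from all other groups.

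In WT, 8 of the 10 members were called higher after HS and 0 lower, beside 28.2% of all 15471 tested genes called higher and 4.02% lower. The 8 include hsp-12.6, whose call is not support for a heat response, for the reason given below. All 10 passed FDR 0.01, 9 upward and sip-1 downward, beside 12314 of all 15471 tested genes, 6810 upward and 5504 downward. Among the developmental genes hsp-12.2 gave the largest response. It read 1.49, 1.57 and 0.468 CPM in WT at 20 °C and 82.7, 67.5 and 74.2 CPM after HS, a fold change of 62.4 (34.6 to 113, FDR = 1.4e-09). The calls also included hsp-43, with a log2 fold change of 4.35 ± 0.49 (SE), hsp-12.3 with 3.53 ± 0.32, and hsp-12.1 with 2.76 ± 0.35. Their ranges in WT did not overlap between temperatures.

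The muscle protein gene hsp-25 read 19.1, 18.3 and 9.79 CPM in WT at 20 °C and 58.4, 62.6 and 56.1 CPM after HS. Its log2 fold change of 1.91 ± 0.22 (FDR = 8.8e-07) did not reach the fold of 4, and with met-2-CD as the baseline it was 1.28. The embryonic gene sip-1 went the other way, from 1741, 1413 and 2140 CPM to 528, 607 and 637 CPM. Its change of -1.58 ± 0.14 (FDR = 5.0e-08) was also short of that fold, but its ranges did not overlap.

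The 2 genes outside the classes also rose. The small chaperone gene hsp-17 went from 0.188, 0.286 and 0.0986 CPM to 5.96, 5.77 and 6.46 CPM, a log2 fold change of 4.96 ± 0.30 (FDR = 4.4e-10). The insulin-responsive gene hsp-12.6 had 2, 3 and 7 counts in WT at 20 °C and 37, 39 and 38 counts after HS. Its fitted log2 fold change of 3.90 ± 0.48 (FDR = 1.5e-06) depends on the prior count, and the gene entered the test only through the WT HS libraries, so its call is not support for a heat response. Neither hsp-43 nor hsp-17 passed the low-count cutoff in any WT library at 20 °C, where hsp-43 had 21, 13 and 1 counts.

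The size of the WT response of the developmental genes depended on the baseline. With met-2-CD at 20 °C in place of WT at 20 °C, 5 members were called higher, beside 19.6% of all tested genes. They were hsp-16.2 with a log2 difference of 7.51, hsp-16.41 with 6.83, hsp-12.6 with 4.61, hsp-17 with 3.23 and hsp-12.3 with 2.69. The hsp-12.6 call is again not support, since that gene entered the test only through the WT HS libraries. The value of hsp-12.2 was then 1.99, that of hsp-43 0.90 and that of hsp-12.1 0.09. For sip-1 it was -0.17 (FDR = 0.30). That baseline carries a met-2 mutation, so it mixes genotype with temperature.

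In met-2Δ, 3 members were called higher after HS and 0 lower, beside 6.30% of all tested genes called higher and 0.530% lower. They were hsp-16.2, hsp-16.41 and hsp-17, which rose from 0.932, 0.906 and 0.595 CPM to 3.68, 4.11 and 3.78 CPM, a log2 fold change of 2.23 ± 0.27 (FDR = 8.2e-06). A prior count of 8 took hsp-17 to 1.94, below the fold of 4. None of the 6 developmental genes was called. Of these, hsp-25 had 0.93 ± 0.23 (FDR = 0.0029) and sip-1 -0.85 ± 0.14 (FDR = 0.00016), both past the FDR but not the fold. The others were hsp-12.2 with 1.05 ± 0.32 (FDR = 0.011), hsp-12.3 with 0.81 ± 0.32 (FDR = 0.045), hsp-43 with 0.38 ± 0.42 (FDR = 0.46) and hsp-12.1 with 0.37 ± 0.33 (FDR = 0.37). The median log2 fold change of the 6 developmental genes was 3.14 in WT and 0.60 in met-2Δ, and that of the hsp-16 pair was 6.73 and 7.54, beside 0.18 and 0.04 over all tested genes.

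**Figure D3:**
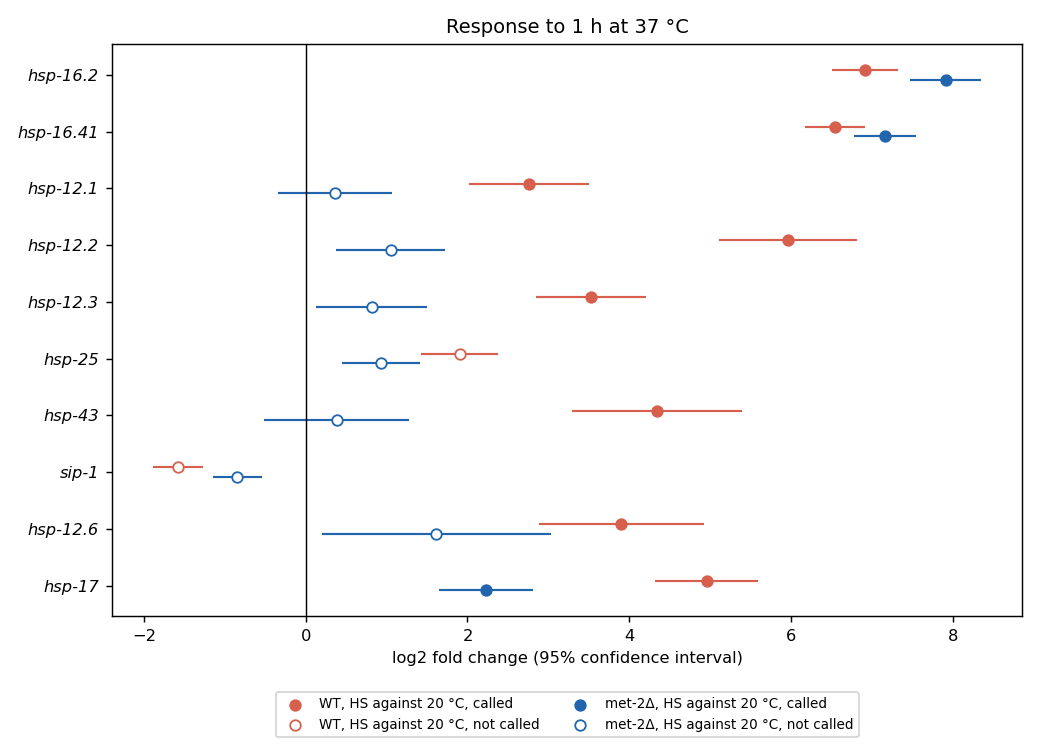
Log2 fold change after 1 h at 37 °C against 20 °C for each member in WT and in met-2Δ, with 95% confidence intervals. Filled points were called (FDR below 0.01 and fold change above 4). The hsp-16 genes lie beyond 6.5 in both genotypes, and no developmental gene is called in met-2Δ.

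The difference between the 2 heat responses was tested directly by the interaction of genotype and temperature, at FDR below 0.01 with no fold limit. It was lower in met-2Δ for 5 members and higher for 2, beside 27.0% and 23.1% of all tested genes. The 5 were hsp-12.2 (log2 difference -4.91 ± 0.50), hsp-43 (-3.96 ± 0.65), hsp-17 (-2.73 ± 0.42), hsp-12.3 (-2.71 ± 0.45) and hsp-12.1 (-2.39 ± 0.47). The 2 were hsp-16.2 (1.00 ± 0.23, FDR = 0.0014) and sip-1 (0.73 ± 0.20, FDR = 0.0051). The remaining 3 had 0.62 ± 0.20 for hsp-16.41 (FDR = 0.014), -0.98 ± 0.31 for hsp-25 (FDR = 0.013) and -2.28 ± 0.92 for hsp-12.6 (FDR = 0.042). The hsp-16.41 difference stayed short of the threshold in only 14 of 25 alternatives, and that of hsp-25 in 18 of 25. Both passed it in the other alternatives, DESeq2 among them (0.70 and -0.91). With met-2-CD as the WT baseline only hsp-12.3 was called (-1.87, FDR = 0.0059), beside 1372 of all tested genes called lower and 815 higher. With that baseline hsp-12.1 changed sign to 0.27, sip-1 changed sign to -0.68, and hsp-16.2 was 0.40 (FDR = 0.21). The sip-1 call was also lost under library totals (0.51, FDR = 0.025), with a mean count of at least 50 (0.62, FDR = 0.014), and on leaving out WT HS library a (0.66), met-2Δ HS library b (0.74) or met-2Δ HS library c (0.63).

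At 20 °C the comparison of met-2Δ with WT went in both directions among the members. Like that of met-2-CD with WT, it rests on the WT libraries that stood apart. In met-2Δ, 5 members were called higher, beside 19.2% of all tested genes, and 2 lower, beside 8.43%. The largest difference was that of hsp-12.2, which read 20.7, 18.4 and 15.03 CPM in met-2Δ against 1.49, 1.57 and 0.468 in WT, a fold change of 15.1 (8.49 to 26.8, FDR = 3.6e-07). The others called higher were hsp-43 with 3.22 ± 0.52, hsp-17 with 2.08 ± 0.36, hsp-12.1 with 1.79 ± 0.35 and hsp-12.3 with 1.35 ± 0.34 on the log2 scale. The hsp-12.3 call (FDR = 0.0028) was lost without WT library a (1.18), WT library b (1.31) or met-2Δ library a (1.28), and with libraries thinned to the smallest (1.18).

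The 2 called lower in met-2Δ were the hsp-16 genes. The log2 fold change was -1.55 ± 0.17 for hsp-16.2 (FDR = 1.4e-06) and -1.14 ± 0.15 for hsp-16.41 (FDR = 6.7e-06), with each met-2Δ library below each WT library. Scaled by library totals alone, hsp-16.41 was at -0.94 and no longer passed the fold of 2. The sip-1 transcript was at -0.67 ± 0.14 (FDR = 0.00067), short of that fold, with 1116, 1095 and 1122 CPM in met-2Δ. For hsp-25 the value was 0.29 ± 0.22 (FDR = 0.26), and it was -0.0059 without WT library c.

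In met-2-CD, 4 members were called higher than in WT, beside 15.9% of all tested genes, and 1 lower, beside 7.84%. Those higher were hsp-12.2 with 3.97 ± 0.38, hsp-43 with 3.45 ± 0.49, hsp-12.1 with 2.66 ± 0.34 and hsp-17 with 1.73 ± 0.34. The hsp-17 call was lost in a fit of only the groups compared (1.74) and with all libraries thinned to the depth of the smallest (1.36). The gene called lower was sip-1, at 782, 605 and 601 CPM, with a log2 fold change of -1.41 ± 0.14 (FDR = 5.9e-07). The hsp-16 genes lay between WT and met-2Δ: hsp-16.2 read 14.7, 14.2 and 17.1 CPM and hsp-16.41 read 29.7, 30.9 and 31.2 CPM. Against WT they differed by -0.60 ± 0.16 (FDR = 0.0040) and -0.29 ± 0.14 (FDR = 0.090), neither past the fold of 2.

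Between the mutants, met-2Δ against met-2-CD, 0 members were called by edgeR's quasi-likelihood test or by DESeq2, beside 4.96% of all tested genes called higher and 0.892% lower. An unadjusted p below 0.05 in the quasi-likelihood test was found for 4 members, beside 7050 of all 15471 tested genes. The pair hsp-16.2 and hsp-16.41 was lower in met-2Δ by -0.95 ± 0.18 (FDR = 0.0010) and -0.85 ± 0.15 (FDR = 0.00067), and sip-1 was higher by 0.75 ± 0.14 (FDR = 0.0012), each below the fold of 2 with ranges that did not overlap. For hsp-12.2 the difference was -0.06, with an interval of -0.72 to 0.61. A call of 1 member appeared without met-2-CD library a (hsp-12.1, -1.14) and without met-2-CD library b or met-2Δ library b (hsp-16.2, -1.003 and -1.08).

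After HS, met-2Δ against WT, 7 members had an unadjusted p below 0.05 in the quasi-likelihood test, beside 7275 of all 15471 tested genes. Of the members 0 were called higher, beside 1.52% of all tested genes, and 2 lower, beside 5.71%, with the same counts in DESeq2. They were hsp-12.3, at 3.73, 2.63 and 3.001 CPM against 8.62, 6.13 and 9.29 (-1.36 ± 0.29, FDR = 0.0033), and hsp-12.6, with 5, 6 and 11 counts against 37, 39 and 38 (-1.85 ± 0.44, FDR = 0.0061). Since hsp-12.6 entered the test through the WT HS libraries, where it is high, its call is a description only, which leaves hsp-12.3. The hsp-12.3 call was lost without WT library a (-1.30) or c (-1.24) or met-2Δ library b (-1.24) or c (-1.33), and the hsp-12.6 call without any one of the 3 WT libraries (-1.89 to -1.82) or met-2Δ library a (-1.63) or b (-1.61). Of the rest, hsp-16.41 passed the FDR (-0.52 ± 0.14, FDR = 0.0098) and hsp-16.2 was at -0.55 ± 0.15 (FDR = 0.012). The sip-1 transcript was at 0.06 ± 0.14, with an interval of -0.24 to 0.37 and overlapping ranges.

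**Figure D4:**
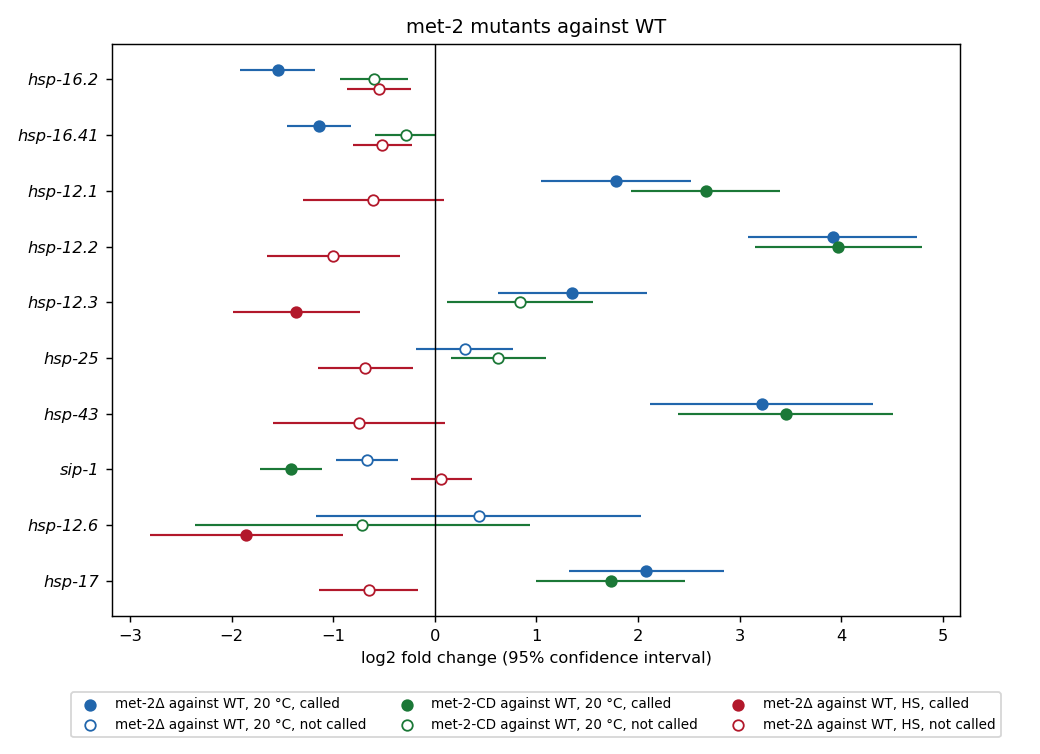
Log2 fold change of each member against WT, for both mutants at 20 °C and for met-2Δ after HS, with 95% confidence intervals. Filled points were called (FDR below 0.01 and fold change above 2). For hsp-12.1, hsp-12.2, hsp-43 and hsp-17 both mutants lie above 0 at 20 °C, and the HS values of all members but sip-1 lie below 0.

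Ordered by mean CPM, the 5 groups fell into different sequences for different members. For both hsp-16 genes the order was WT HS, met-2Δ HS, WT, met-2-CD and met-2Δ, with every neighbouring pair of groups apart. For sip-1 it was WT, met-2Δ, met-2-CD, met-2Δ HS and WT HS, and the last 3 overlapped with their neighbours. For hsp-12.1 it was WT HS, met-2-CD, met-2Δ HS, met-2Δ and WT, so that an unheated mutant overlapped WT after HS. For hsp-12.2, hsp-25 and hsp-43 the HS groups led and WT at 20 °C was lowest, but met-2-CD and met-2Δ at 20 °C overlapped. For hsp-25 met-2Δ and WT at 20 °C overlapped as well, and for hsp-43 met-2Δ HS and met-2-CD did.

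Replicates of the met-2-CD and WT groups at 20 °C were uneven for several developmental genes. In met-2-CD, hsp-12.1 read 13.5, 21.1 and 30.8 CPM in libraries a, b and c, hsp-12.2 9.55, 16.9 and 29.7, hsp-43 1.32, 2.37 and 4.66, and hsp-25 17.9, 21.2 and 33.6. In WT at 20 °C library c was the lowest of the 3 for each of these genes, with 1.23 CPM of hsp-12.1 beside 4.57 and 4.44, and the highest for sip-1. The summed CPM of 13 markers of differentiated tissue (muscle, gut, cuticle and neuron genes) followed the same libraries, at 494, 670 and 1027 in met-2-CD and 259, 278 and 132 in WT.

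Across groups these markers summed to 132 to 278 CPM in WT, 609 to 839 in met-2Δ and 494 to 1027 in met-2-CD at 20 °C, and to 2225 to 3373 in WT and 1802 to 2162 in met-2Δ after HS. Against WT at 20 °C, 9 of the 13 were called higher for met-2Δ and 7 for met-2-CD. After HS, each genotype against its own 20 °C libraries, 10 were called higher in WT and 1 in met-2Δ. None was called lower in these 4 comparisons. The single marker at 0 in all libraries of a group was col-12, in WT at 20 °C. Of the 16 early embryo markers, 0 were called higher in the same 4 comparisons. Against WT at 20 °C, met-2-CD had 5 of them called lower (median log2 fold change -0.64) and met-2Δ had 4 (-0.10). The heat response had 2 called lower in WT (-0.68) and 0 in met-2Δ (-0.16). The 9 markers of the mother's soma summed to 800 to 1048 CPM in WT and 139 to 171 in WT after HS, but nearly all of that sum was lbp-1, with a mean of 951 and 142.4 CPM. Of the 6 of these markers that could be tested, 5, yolk genes among them, were called higher in WT after HS and lbp-1 lower, and each yolk gene averaged at most 3.94 CPM in any group. The 12 sperm markers summed to 1.12 to 1.28 CPM in WT, 4.57 to 5.06 in met-2Δ and 3.14 to 4.001 in met-2-CD at 20 °C, and to 10.97 to 14.4 in WT and 7.32 to 9.15 in met-2Δ after HS. All 4 sperm markers tested were called higher in WT after HS and in unheated met-2Δ against WT. The part of tissue or stage composition in the members' differences was not tested, and in these bulk samples fewer cells of a type and less RNA per cell cannot be told apart.

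**Figure D5:**
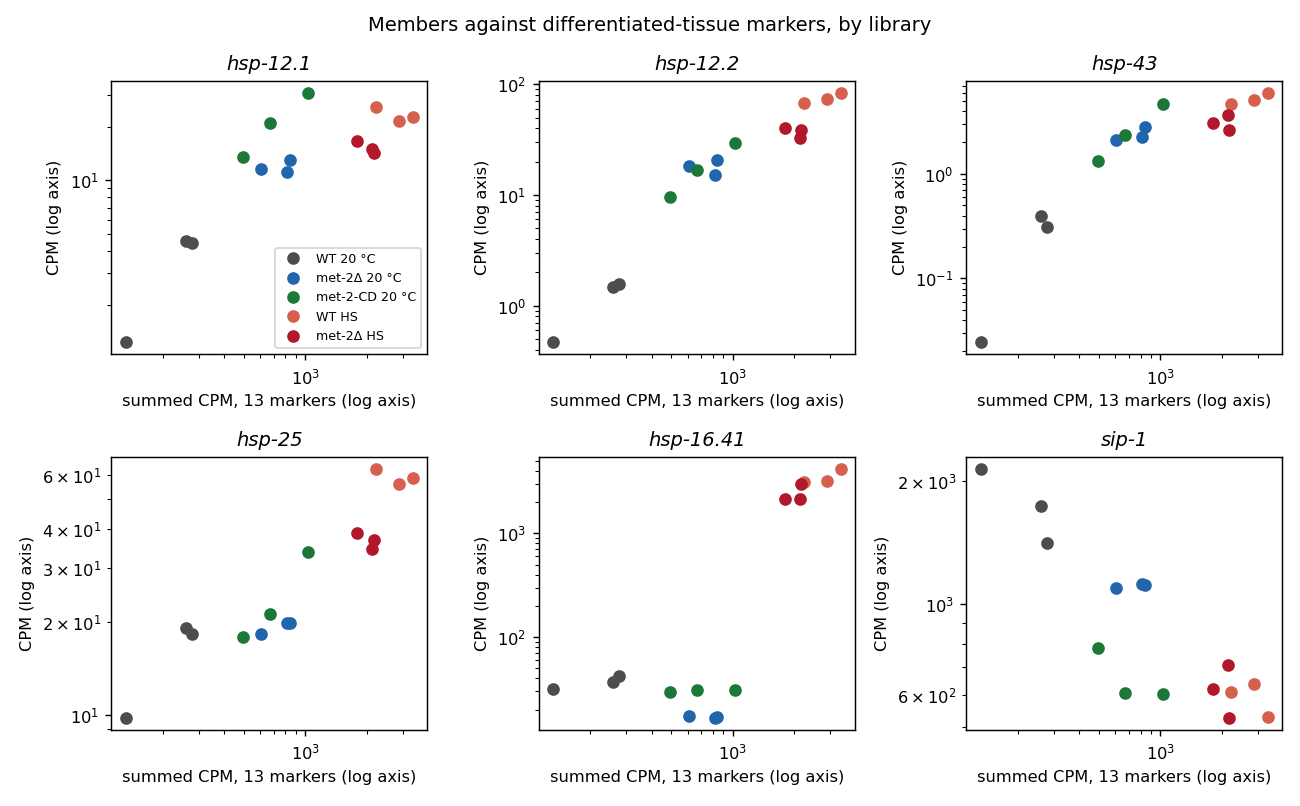
CPM of 6 members against the summed CPM of 13 differentiated-tissue markers in the same library, on log axes, with one point per library and 5 groups by colour. The hsp-12.1, hsp-12.2, hsp-43 and hsp-25 levels are lowest in the WT 20 °C library with the lowest marker sum (132 CPM), whereas hsp-16.41 splits by temperature.

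Other alpha-crystallin genes gave little more. The near-identical copies hsp-16.1 and hsp-16.48, on chromosome V, each had 2 rows in the table, with 0 counts in 3 of the rows and 2 counts over all libraries in the fourth. Only uniquely aligned reads were counted, so their transcripts could not be measured. Of the 4 further genes tested, F08H9.4 was called higher in WT after HS (3.73 ± 0.30) and against WT at 20 °C in both mutants (met-2Δ 2.97 ± 0.33, met-2-CD 2.34 ± 0.32). With met-2-CD as the WT baseline its heat call was lost (1.40). The WT heat values of ZK1128.7, F08H9.3 and Y55F3BR.6 were 1.78 ± 0.19 (FDR = 2.6e-07), 0.17 ± 0.16 and 0.25 ± 0.12, and with met-2-CD as the baseline 2.10, past the fold of 4, 0.77 and 0.07.

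In the list of 20 HSF-1 pathway genes and targets, 5 were called higher and 0 lower in WT after HS, beside 28.2% and 4.02% of all tested genes. With met-2-CD as the baseline 4 were called higher, beside 19.6%. The list also holds hsf-1, hsb-1, ddl-1 and ddl-2, so its counts do not describe targets alone. Whether each of the others, hsp-3, hsp-4, hsp-6 and hsp-60 among them, is a target was not tested. Mean CPM in WT at 20 °C and after HS was 5.94 and 2145 for hsp-70, 227 and 3280 for hsp-110, and 1030 and 7725 for hsp-90. It was 0.0987 and 1358 for F44E5.4, and 0.0784 and 1676 for F44E5.5. Unheated met-2-CD averaged 19.7 CPM of F44E5.4 and 25.5 of F44E5.5, and unheated met-2Δ averaged 7.52 and 10.04. The rise of these genes to the WT HS level is therefore far smaller from the met-2-CD baseline than from WT at 20 °C. The unheated met-2-CD mean was also above WT at 20 °C for hsp-110 (418) and hsp-90 (2072), but below it for hsp-70 (3.72). Of the 20, 13 passed the FDR upward and 3 downward in WT after HS against WT at 20 °C, beside 6810 and 5504 of all 15471 tested genes. In met-2Δ after HS, 4 were called higher and 0 lower, beside 6.30% and 0.530%. Against WT at 20 °C, 3 were called higher and 1 lower for met-2Δ, beside 19.2% and 8.43%, and 4 and 0 for met-2-CD, beside 15.9% and 7.84%. After HS, 0 were called in either direction between met-2Δ and WT, beside 1.52% of all tested genes called higher and 5.71% lower. The FDR alone was passed upward by 1 and downward by 9, beside 1019 and 1618 of all 15471 tested genes. An unadjusted p below 0.05 in the quasi-likelihood test was found for 11 of the 20, beside 7275 of all tested genes. The transcript of the heat shock factor itself, hsf-1, read 165, 149 and 176 CPM in WT at 20 °C and 96.4, 103 and 100 CPM after HS, a log2 fold change of -0.71 ± 0.08 (FDR = 2.7e-07). With met-2-CD as the baseline hsf-1 was at -0.12 (FDR = 0.15). In met-2Δ it was 117, 117 and 128 CPM and then 124, 121 and 130 CPM (0.05 ± 0.08, FDR = 0.61). The gene of its binding partner, hsb-1, differed by -0.86 ± 0.09 in WT (-0.06 with met-2-CD as the baseline, FDR = 0.52) and -0.20 ± 0.09 in met-2Δ (FDR = 0.074).

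The genes with the most similar patterns, by Pearson's r of log2(CPM + 1) over the 15 libraries, differed between classes. For hsp-16.2 and hsp-16.41 they were each other (r = 0.999), the chaperone gene hsp-70 (0.997 and 0.998) and tent-5 (0.995 and 0.996). For hsp-12.2 they were vha-5, a proton pump subunit gene, cor-1 and the calcium channel subunit gene unc-36 (0.996 to 0.998), and for hsp-25 ost-1, a basement membrane protein gene, F36G3.1 and test-1 (0.989 to 0.993). For hsp-43 they were F56F10.2, cutl-26 and the intermediate filament gene ifd-2 (0.988 to 0.991), and for hsp-12.1 F40A3.2, C48E7.6 and bgal-1 (0.994). The nearest genes of hsp-17 were pkg-2, F47B8.10 and amt-4 (0.993 to 0.995), those of hsp-12.3 ZK813.4, C14C11.4 and WBGene00012273 (0.985 to 0.990), and those of sip-1 ZK616.5, Y18D10A.11 and C30F12.4 (0.980 to 0.988). For hsp-12.6, at a handful of counts, they were the chemoreceptor genes str-246, sre-6 and srab-1 (0.980 to 0.986). Among the members themselves, hsp-12.2 and hsp-43 were closest after the hsp-16 pair (0.977), and sip-1 had negative values with every other member, from -0.912 with hsp-12.1 to -0.486 with hsp-12.6. These values describe 15 libraries that share depth and 5 groups, and carry no test.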

How the data were processed

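RNA-seq was measured in 15 libraries of early embryos, 3 in each of 5 groups. The authors trimmed adapters with Trimmomatic 0.39, aligned reads to ce10 with hisat2 through QuasR 1.22.0 and deposited raw counts of uniquely aligned reads over WormBase WS220 exons. Replicates were not pooled, and 0 columns were left without a group. Exon lengths, for RPKM only, and gene positions came from the WBcel235 annotation, which held 97.4% of the table's genes. Of 20392 genes, 15471 passed edgeR's count filter. One edgeR 4.0.16 quasi-likelihood model (R 4.3.3, TMM, 5 group means, all 15 libraries) was fitted, with FDR by Benjamini-Hochberg over all genes tested. The biological coefficient of variation was 11.8%. On simulated data the step was tested for recovery of known fold changes. Ranges over 3 libraries, SDs and SEs give the precision; the 3-count floor covers counting error only. Figures were drawn with Python. Alternatives changed the scaling, filter, thresholds, prior count, tool (DESeq2 1.42.0), depth, baseline and replicates. The members, classes, gene lists and tests were chosen with earlier results of these data known. The text names all 10 members, met-2, hsf-1, hsb-1, further genes of the HSF-1 list, other small heat shock genes and, for each member, the 3 genes of highest correlation. Reads were counted in the orientation of the gene; the sources name different library kits, so whether reads of opposite-strand genes overlapping hsp-12.2, hsp-25, hsp-17 and sip-1 were kept apart was not tested. Promoter and protein sequences were not used here.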

Additional observations from a re-analysis of the deposited data

Results flagged for a closer look

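The heat response (log2, HS against 20 °C) differed between met-2Δ and WT, by the interaction test at FDR below 0.01, for 7 members. The difference, met-2Δ minus WT, was -4.91 for hsp-12.2, -3.96 for hsp-43, -2.71 for hsp-12.3, -2.73 for hsp-17 and -2.39 for hsp-12.1, and 0.73 for sip-1 and 1.00 for hsp-16.2. Of all 15471 tested genes, 27.0% had a lower and 23.1% a higher response in met-2Δ. With met-2-CD at 20 °C as the WT baseline 1 member, hsp-12.3, was called, beside 2187 of all tested genes. The WT libraries at 20 °C, which enter each of these differences, stood apart from all other groups, and their part in the differences was not tested. They were also the only libraries with neither a met-2 mutation nor heat.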

How the results depend on the processing

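Of 82 log2 fold changes of named genes, 52 kept their direction and their side of the threshold under each alternative run for them. With met-2-CD at 20 °C in place of WT at 20 °C, members called in the WT heat response fell from 8 to 5 and all genes called to 3195. The 8 and the 5 both include hsp-12.6. In the interaction members called fell from 7 to 1 and all genes called to 2187, and hsp-12.1 and sip-1 changed sign (0.27 and -0.68). With fold limits of 2 for heat and 1.5 between genotypes, 3 members were called between the mutants, and all genes called were 6465 (met-2Δ) and 5757 (met-2-CD) against WT, 1656 between the mutants, 8391 in WT and 2642 in met-2Δ after HS, and 1746 between genotypes after HS. With a mean count of at least 50 the counts were 2703, 475, 2260, 300 and 483 genes (met-2Δ against WT, between mutants, WT heat, met-2Δ heat, genotypes after HS), and 1 member was called between genotypes after HS; fewer genes were tested. A prior count of 8 gave 445 genes in the met-2Δ heat response, FDR below 0.05 gave 1808 between genotypes after HS, and fitting only the groups compared gave 496 between the mutants. The difference of hsp-12.2 between the mutants turned positive under library totals (0.0052) and under thinning to the smallest library (0.0099).

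Leaving out each library in turn, members called were 6 to 7 (met-2Δ against WT), 5 to 6 (met-2-CD against WT) and 0 to 1 (between mutants). The counts were 8 to 8 (WT heat, hsp-12.6 among them), 3 to 3 (met-2Δ heat), 0 to 2 (genotypes after HS) and 7 to 9 (interaction). All genes called were 619 to 1128 between mutants and 512 to 1308 between genotypes after HS. Signs turned for values not called: hsp-25 (-0.0059 to 0.40) and hsp-12.6 (-0.088 to 1.10) in met-2Δ against WT, hsp-12.2 (-0.38 to 0.40) and hsp-43 (-0.57 to 0.32) between mutants, sip-1 (-0.041 to 0.17) between genotypes after HS, and F08H9.3 in the WT heat response (-0.032 to 0.25).

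Scaling by library totals moved the median log2 fold change of all genes by 0.23 in the WT heat response, by 0.20 and 0.13 in met-2Δ and met-2-CD against WT, and -0.21 in the interaction; the share of calls that were higher went from 69.5% to 80.4% in met-2Δ against WT and from 46.1% to 32.5% in the interaction. The columns carry letters, not replicate numbers, and same-letter libraries did not deviate together (r from -0.40 to 0.18 over 30 pairs, against -0.31 to 0.39 over 60 pairs of other letters). A fit with the letter as a replicate block called 7, 5, 0, 8, 3, 2 and 7 members in the 7 comparisons, as without it, and 964 genes against 1119 between genotypes after HS. At 0 to 7 counts a library, hsp-12.6 at 20 °C was not measurable with precision, and promoter motif and protein identity results were not run.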
